A study of Bos grunniens and Bos taurus with 11 samples.

Results

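The lungs of yaks living at 5000 m (T3) were compared with the lungs of yaks living at 4200 m (T2), with 3 RNA-seq libraries in each group, which are 6 of the 11 libraries of the series. All 6 animals were indigenous adult male yaks of breeding age, and no treatment or allele distinguished them. The T2 animals came from Bange, Linzhou and Dangxiong counties and the T3 animals all came from Anduo county, so altitude and place cannot be told apart. T2 is composed of the libraries LZlg01, BGlg02 and DXlg03 (replicates 1, 2 and 3) and T3 of ADlg01, ADlg02 and ADlg03 (replicates 1, 2 and 3). Expression was given as FPKM, that is, fragments relative to the length of the gene and to a total, here the fragments counted on all listed genes. Of the 17267 genes in the files, 12284 stood at 1 FPKM or more in at least 2 of the 6 libraries and were tested, of which 6762 carried only a numeric identifier and 5522 were new genes assembled by the authors.

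The lung takes up oxygen across a thin wall of epithelium and capillary endothelium, and it also holds a large resident population of immune cells. In most mammals low oxygen narrows the pulmonary arteries, and the yak is known for thin-walled pulmonary arteries that respond weakly. Whether the transcriptome of such a lung differs between a high and a still higher altitude was the question of this comparison.

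What the genes could tell about this biology was limited by their names. No numeric identifier could be paired with a symbol, since 0 of the 8451 matched the reference gene table. Among the new genes, 390 carried an orthology name, 312 of them were tested, and these held 189 distinct names. Of 113 marker names for 15 cell types, from surfactant proteins of alveolar type 2 cells to haemoglobins of erythroid cells, 0 were found, so the label lung could not be checked against defining markers. The lists of gene symbols for hypoxia response, haemoglobin, interferon response, antigen presentation and extracellular matrix likewise had 0 members in the files, and so had a list of 13 symbols and 2 new genes taken from the study. No sequence is shown because no sequence tables were available here.

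The libraries differed in depth and composition within both groups. Reads on genes, recovered as whole numbers from FPKM, ranged from 28138973 to 54515645 per library. The 10 genes with the most reads over the 6 libraries took 27.3%, 21.5% and 24.7% of reads in T2 replicates 1, 2 and 3 and 39.5%, 39.5% and 24.8% in T3 replicates 1, 2 and 3. T3 replicates 1 and 2, whose reads also mapped less completely in the study's own records, were therefore the concentrated libraries, whereas T3 replicate 3 lay within the T2 range. These 10 genes were chosen on the same libraries, and with the 10 most abundant genes of each library in their place, the T2 libraries averaged 26.6 ± 3.90% and the T3 libraries 35.4 ± 8.26% (SD, n = 3 each). That difference did not pass an exact two-sided permutation test (p = 0.20, where 3 against 3 libraries cannot go below 0.10). Genes without a single read numbered 1828, 2342 and 2056 in T2 and 2816, 3747 and 2226 in T3. Across the tested genes, the correlation of log2(FPKM + 1) was 0.944 between T3 replicates 1 and 2 but 0.888 and 0.904 between T3 replicate 3 and the other two, and T2 replicate 1 correlated at only 0.850 to 0.896 with the other 5 libraries. New genes took 30.9% of reads in T2 replicate 1, against 14.7% and 15.6% in the other T2 libraries and 16.4% to 21.95% in T3.

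Of the 10 genes with the most reads, NewGene.2 carried the name ND5 and the others could not be named here, and the patterns across animals differed between them. NewGene.4333, 476 bases long, took 18.3% of reads in T2 replicate 1 and 4.46% and 5.28% in the other T2 libraries, against 6.83%, 7.84% and 8.31% in T3. T2 replicate 1 was thus the only library above 9% for this gene. The gene 102266368 showed the opposite, with 0.610% of reads in T2 replicate 1, 8.27% and 8.85% in the other T2 libraries and 14.8%, 5.66% and 6.18% in T3. For 102282259 the shares were 1.92%, 2.03% and 2.47% in T2 and 5.15%, 2.99% and 2.32% in T3. In each of these cases the groups overlapped. NewGene.14489 (1.42% to 2.51% in T2 and 1.42% to 4.16% in T3), NewGene.14154 (1.85% to 2.45% and 1.54% to 2.61%), 102267346 (1.49% to 1.74% and 1.35% to 2.95%) and 102285161 (0.170% to 0.939% and 0.500% to 0.881%) overlapped as well.

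Among these abundant genes, 102276161 and 102270677 were high in T3 replicates 1 and 2 and in no other of the 6 libraries. The FPKM of 102276161 was 115, 115 and 97.7 in T2 and 6705, 59633 and 69.9 in T3, so that T3 replicate 3 was the lowest library of all. The gene 102270677 had 741, 677 and 745 in T2 and 22852, 71496 and 489 in T3. A search made after the values were seen, for genes with 100 FPKM or more in both of these libraries and at least 8 times the highest of the other 4, found 3 genes, the third being NewGene.4675 with 43.6, 57.7 and 44.4 in T2 and 1002, 19814 and 36.5 in T3. Together these 3 genes took 2.68% and 17.6% of the reads of T3 replicates 1 and 2 and between 0.0410% and 0.0641% in the other 4 libraries. The log2 fold changes of 4.79, 3.69 and 4.205 (T3 against T2) were therefore carried by those libraries, none of the 3 genes passed the adjusted test (limma, adjusted p = 0.55 each), and all 3 turned negative without them, with values of -0.63, -0.56 and -0.39.

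**Figure D1:**
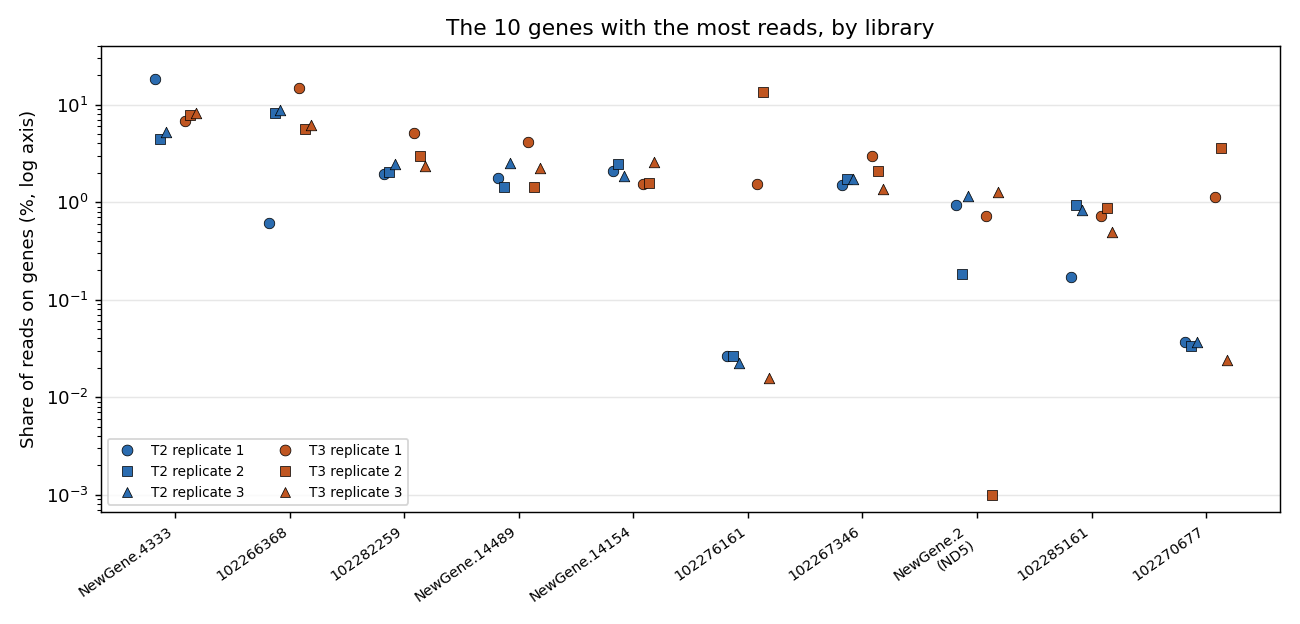
Share of the reads on genes (%, log axis) taken by each of the 10 genes with the most reads, with one point per library, T2 in blue and T3 in orange; a value of 0 (NewGene.2 in T3 replicate 2) is drawn at 0.001. 102276161 and 102270677 stand at 1.52% and 1.14% in T3 replicate 1 and at 13.5% and 3.55% in T3 replicate 2, and below 0.1% in the other 4 libraries.

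Mitochondrial transcripts were represented by 5 new genes that carried the name ND2 or ND5, after subunits of respiratory complex I. Together they took 2.63%, 0.313% and 1.24% of reads in T2 and 1.49%, 0.767% and 1.35% in T3, so the groups overlapped. Single models behaved irregularly. The longest, NewGene.2 (ND5, 16323 bases), had an FPKM of 570, 112 and 713 in T2 and 441, 0 and 771 in T3, whereas NewGene.1 (ND2, 10451 bases) had 1556, 74.4 and 15.7 in T2 and 689, 670 and 0 in T3. The ND5 models NewGene.12170 and NewGene.12171 have the same length of 1907 bases and had the same FPKM in 5 of the 6 libraries, while in T2 replicate 1 the first stood at 402 and the second at 0. Whether models of the same gene share reads, or whether the longer models cover other mitochondrial genes too, was not tested. The levels of the single models are uncertain and need not be those of ND2 or ND5 messages.

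In the test of the 12284 genes, 1 gene was a DEG, that is, at a fold change of at least 2 and an adjusted p below 0.05 in limma, and it was lower in T3 (0.00814% of genes tested, against 0% higher in T3). Without the adjustment, at p below 0.05 and a fold change of at least 2, 601 genes were lower in T3 (4.89%) and 48 were higher (0.391%), while 1106 genes had p below 0.05 at any fold. All T3 libraries lay below all T2 libraries in 1646 genes (13.4%) and above them in 91 genes (0.741%). When a 2-fold difference was also required, these counts were 438 (3.57%) and 19 (0.155%). The median log2 fold change over all tested genes was -0.31, and 76.9% of genes had a value below 0.

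This downward shift ran through most genes, and it was found in the T3 libraries with concentrated reads. Against the mean of T2, the median gene stood at -0.45 in T3 replicate 1, -0.53 in T3 replicate 2 and -0.04 in T3 replicate 3 on the log2(FPKM + 1) scale. In T3 replicate 3, 154 genes were at least 2-fold below the lowest T2 library and 206 at least 2-fold above the highest, whereas in T3 replicate 2 the numbers were 1116 and 58 and in T3 replicate 1 they were 543 and 40. Rescaling without the 10 most abundant genes left part of the shift, with a median fold change of -0.17 and 65.0% of genes below 0. By the unadjusted threshold 428 genes were then lower and 86 higher. After median-ratio scaling, which equalises the typical gene between libraries, the median fold change was -0.01. The unadjusted counts were then 185 lower (1.51%) and 140 higher (1.14%), so that the share of lower genes dropped from 92.6% to 56.9%. All 185 were among the 601 lower genes of the unscaled test, and all 48 higher genes of the unscaled test were among the 140. With scaling, 130 genes had all T3 libraries below all T2 libraries at a fold of at least 2 (1.06%) and 75 had them above (0.611%), and the adjusted test still called 1 gene lower (0.00814%) and none higher (0%).

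**Figure D2:**
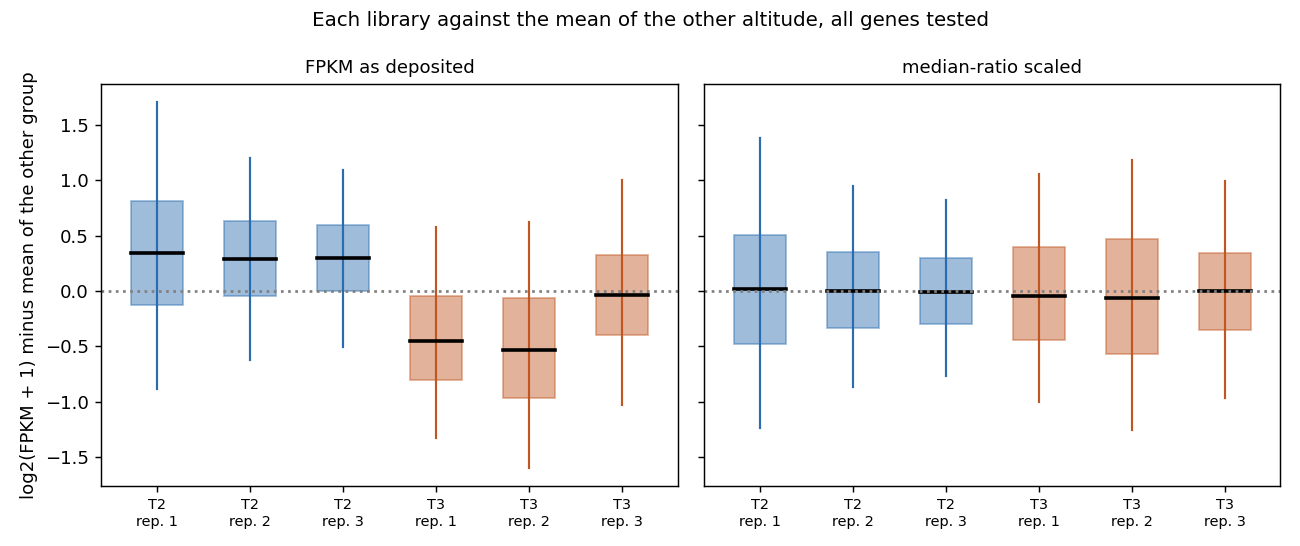
Difference between each library and the mean of the other altitude in log2(FPKM + 1) over the 12284 genes tested, as deposited (left) and after median-ratio scaling (right); lines span the 5th to 95th percentiles, boxes the quartiles, and black bars the medians. As deposited, the medians of T3 replicates 1 and 2 are -0.45 and -0.53 and that of T3 replicate 3 is -0.04, and after scaling all 6 lie between -0.06 and 0.01.

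The shift had the same direction in every class of gene by identifier, length and mean FPKM but differed between T3 libraries. Its median was -0.31 in the numeric identifiers, -0.31 in the new genes and -0.26 in the 312 new genes with a name. In quintiles of gene length the medians lay between -0.34 and -0.29. In quintiles of mean FPKM the median was -0.20 for the most abundant genes and between -0.36 and -0.31 in the other 4 classes. After scaling the classes differed in sign, with -0.13 in the least and 0.21 in the most abundant quintile, and -0.08 in the new genes and 0.05 in the numeric identifiers. Within T3 replicate 3, however, the shortest quintile (153 to 411 bases) was shifted by 0.19 against the T2 mean and the middle quintile (955 to 1879 bases) by -0.21. In T3 replicates 1 and 2 the same quintiles stood at -0.52 and -0.31, and at -0.66 and -0.41. The longest quintile (3601 to 95249 bases) stood at 0.05 in T3 replicate 3 and at -0.54 and -0.58 in T3 replicates 1 and 2. T3 replicate 3 thus differed from its group at both ends of the length range more than in the middle, and the part of this in the results was not tested.

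The 1 DEG was 102283353, a gene of 685 bases without a name. Its FPKM was 35.2, 71.2 and 26.5 in T2, from 924, 1750 and 756 reads, and 0 in all 3 T3 libraries. Against the level of 3 reads per library that a count of 0 allows, it was at least 385-fold lower in T3 (limma log2 fold change -5.38 ± 0.41 SE, adjusted p = 0.00104). Presence and absence of its reads were not particular to this pair of altitudes. In yaks at 3400 m (T1) it stood at 132 in replicate 1 and at 0 in replicates 2 and 3, and in the cattle at 1500 m (CON) at 0 in replicate 1 and 21.5 in replicate 2. In fits that drew the spread from all 9 yak libraries or all 11 libraries, the call was lost and 0 genes passed, with the smallest adjusted p of any gene at 0.32 and 0.21. At an unadjusted p below 0.05 and a fold of at least 2, those limma fits held 652 lower and 49 higher genes with 9 libraries, and 676 and 55 with 11. With limma's voom on the recovered reads 0 genes passed as well, beside 723 lower and 39 higher genes without the adjustment.

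Among the other genes without a name, 102268919 was the next lowest in T3 of those whose libraries did not overlap. It had 59.0, 355 and 21.3 in T2 and 0.405, 2.995 and 10.02 in T3 (log2 fold change -4.30, unadjusted p = 0.00091 and adjusted p = 0.55 in limma). The T2 libraries spread over more than an order of magnitude, and T2 replicate 3 and T3 replicate 3 were the closest pair. In the higher direction the leading gene was 102267932, with 1.203, 1.46 and 0.770 in T2 and 8.51, 11.8 and 8.20 in T3. These groups were compact and well separated (log2 fold change 2.29 ± 0.36 SE, and 2.58 after scaling), but the gene did not pass the adjustment (limma, adjusted p = 0.37), except with library weights and scaling together (log2 fold change 2.78, adjusted p = 0.0266). Outside this pair it stood at 7.32, 1.90 and 7.31 in T1 and at 0.482 and 0.0827 in CON, so T1 replicates 1 and 3 resembled T3. The second, 102267010, had 0.402, 2.21 and 1.82 in T2 and 3.88, 16.2 and 9.39 in T3 (log2 fold change 2.03, adjusted p = 0.55 in limma).

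**Figure D3:**
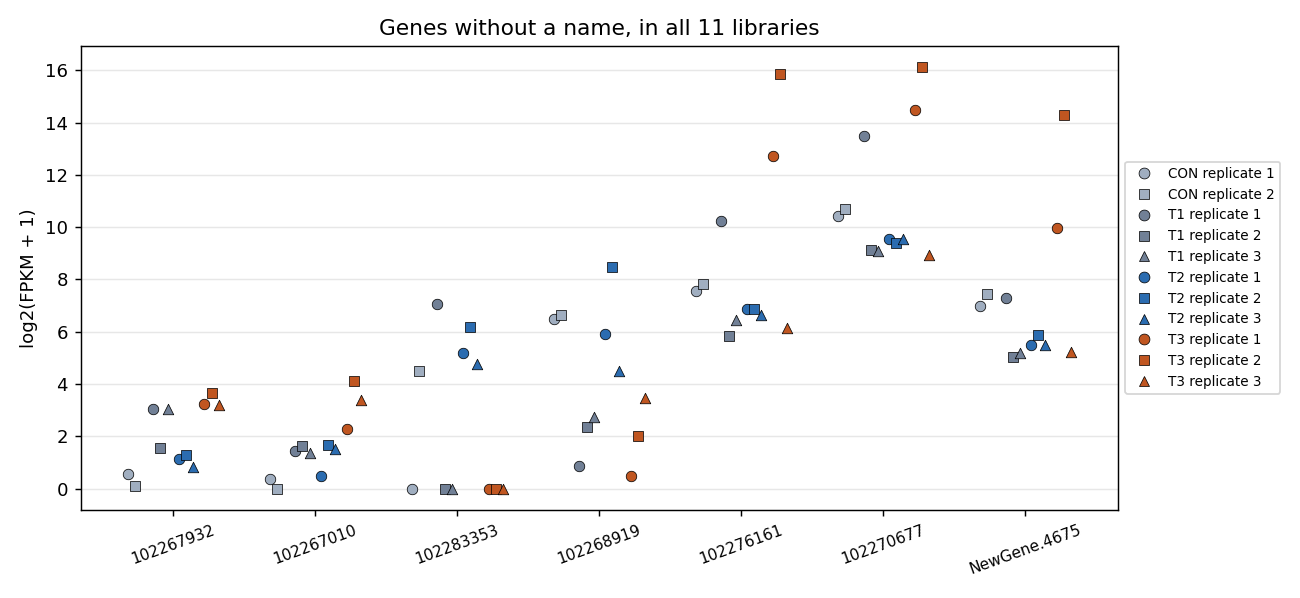
Level in log2(FPKM + 1) of 7 genes without a name in all 11 libraries, with CON and T1 in grey, T2 in blue and T3 in orange. 102283353 stands at 0 in all 3 T3 libraries but also in CON replicate 1 and T1 replicates 2 and 3, and the 3 genes on the right are high in T3 replicates 1 and 2 while T3 replicate 3 lies with or below T2.

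Of the 312 tested genes with a name, 0 passed the adjusted test, and 15 had an unadjusted p below 0.05. With a fold of at least 2 as well, 7 were lower in T3 and 0 were higher, which is 2.24% and 0% against the 4.89% and 0.391% of all genes. After scaling, the same threshold gave 2 lower (0.641%) and 4 higher (1.28%), against 1.51% and 1.14% of all genes. All named genes were new genes. Over the 5522 new genes the shares were 3.21% lower and 0.453% higher, or 1.32% and 1.18% after scaling. Libraries did not overlap, at any fold and unscaled, in 27 named genes that were lower (8.65%) and 1 that was higher in T3 (0.321%). Over all genes these shares were 13.4% and 0.741%, and they were not counted over the new genes alone. Only 4 of the 7 lower genes also had libraries that did not overlap. These names are assignments of assembled transcripts to orthology groups, many of the transcripts are fragments, and none of the differences described in the following paragraphs passed the adjustment over all genes (limma, adjusted p of at least 0.548), so they are given as measured levels.

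Among the genes of the cytoskeleton and the centrosome, PCNT and SHROOM were in this set and DYNLL was just short of the fold. PCNT encodes pericentrin, the scaffold that anchors microtubule-nucleating complexes at the centrosome. Its transcript (NewGene.15539, 705 bases) had an FPKM of 4.04, 2.13 and 4.16 in T2 and 0.567, 0.756 and 1.77 in T3, so that the highest T3 library lay just below the lowest T2 library (log2 fold change -1.14 ± 0.41 SE, and -0.90 after scaling). The values rest on 54 to 122 reads in T2 and 15 to 68 in T3. SHROOM, named for actin-binding proteins that drive apical constriction of epithelial cells, had 3.95, 4.02 and 2.48 in T2 and 1.60, 0.504 and 1.57 in T3 (NewGene.11929, log2 fold change -1.04 ± 0.40 SE, and -0.78 after scaling). DYNLL, the dynein light chain LC8, was more abundant at 33.6, 42.1 and 42.4 in T2 and 17.9, 15.6 and 28.5 in T3 (NewGene.7951, log2 fold change -0.94 ± 0.30 SE, and -0.54 after scaling). In all 3 genes the groups did not overlap.

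Other members of the microtubule system overlapped or differed less. KIF26, a kinesin, had 5.57, 4.74 and 6.32 in T2 and 2.92, 2.29 and 3.96 in T3. The axonemal dynein heavy chain DNAH, which powers ciliary beating, stood at 5.91 in T2 replicate 1 and at no more than 2.02 in the other 5 libraries. The larger of the tubulin alpha models (TUBA, NewGene.14684) had 6.83, 4.09 and 4.93 in T2 and 2.40, 2.52 and 4.53 in T3, where T3 replicate 3 fell inside the T2 range. All 4 tested members of the list microtubules and cilia (TUBA, TUBA, DNAH and KIF26) had log2 fold changes below 0, with a median of -0.67, or -0.35 after scaling, and 0 of them passed the unadjusted threshold with a fold of at least 2. Of 16 tested genes with a microtubule annotation in Gene Ontology, 2 were lower by that threshold and 0 higher (4.89% and 0.391% over all genes). Neither of the 2 was still called after scaling. The lowest log2 fold change of the 16 was -1.14, the value given for PCNT above, so the 2 may include genes already named. The median of the 16 was -0.57 beside -0.31 over all genes, and -0.27 beside -0.01 after scaling. Related terms differed, each with 8 tested genes. The median was -0.73 for the centrosome, -0.15 for the microtubule cytoskeleton and -0.10 for the cilium. After scaling these medians were -0.48, 0.13 and 0.17. By the unadjusted threshold with a fold of at least 2, 2 genes were lower for the centrosome, 0 for the microtubule cytoskeleton and 2 for the cilium. These were 25%, 0% and 25% of the genes, beside 4.89% of all genes, and 0 were lower for each term after scaling.

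Among genes of chromatin and RNA processing, HNRNPUL1 and RBBP4 had T3 replicate 3 as the T3 library nearest to T2. HNRNPUL1, an RNA-binding protein of the hnRNP U family, had 6.68, 6.58 and 9.23 in T2 and 2.22, 2.02 and 6.35 in T3 (NewGene.2950, log2 fold change -1.02 ± 0.42 SE, and -0.70 after scaling). RBBP4, the histone-binding subunit of several chromatin complexes, had 18.3, 22.99 and 22.8 in T2 and 9.25, 7.29 and 16.1 in T3 (NewGene.7774, log2 fold change -0.97 ± 0.34 SE, and -0.59 after scaling). THOC2, of the THO complex for messenger RNA export, had 4.33, 3.52 and 3.99 in T2 and 1.68, 2.25 and 1.60 in T3 (NewGene.14501, log2 fold change -0.81, and -0.49 after scaling). For THOC2 the 3 T3 libraries lay close together.

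Of the 601 genes lower in T3 by the unadjusted threshold, T3 replicate 3 was the T3 library nearest to T2 in 377, which is 62.7%, T3 replicate 1 in 193 and T3 replicate 2 in 31. The median of these genes against the T2 mean was -1.25 in replicate 1, -1.63 in replicate 2 and -0.88 in replicate 3. Of the 48 higher genes, T3 replicate 1 was nearest to T2 in 29.

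Further named genes below their T2 level belonged to several pathways. TCF7L2, a transcription factor of the Wnt pathway, had 9.30, 15.3 and 12.02 in T2 and 4.32, 3.26 and 11.3 in T3, and here T3 replicate 3 fell inside the T2 range (NewGene.3661, log2 fold change -0.99, and -0.64 after scaling). TFG, a protein of endoplasmic reticulum exit sites, had 4.69, 4.04 and 4.66 in T2 and 1.26, 1.24 and 3.67 in T3 (NewGene.5557, log2 fold change -0.93, and -0.65 after scaling). ADAMTS17, a secreted metalloproteinase, had 3.11, 2.67 and 2.52 in T2 and 1.28, 0.792 and 1.35 in T3 (NewGene.3123, log2 fold change -0.82, and -0.57 after scaling). The pair of TSPYL5 models that passed the unadjusted threshold had overlapping groups, with 18.1, 11.5 and 4.15 in T2 and 2.59, 0.613 and 4.66 in T3 for the model of 232 bases (NewGene.11885, log2 fold change -1.74, and -1.46 after scaling), and 9.79, 5.35 and 2.56 in T2 and 1.74, 1.32 and 3.18 in T3 for the model of 432 bases (NewGene.11884, log2 fold change -1.07, -0.77 after scaling and -0.67 without T2 replicate 1). A transcript named KRAB, after a repressor domain of zinc finger proteins, had 4.84, 1.77 and 1.31 in T2 and 0.226, 0 and 1.58 in T3 (NewGene.11092, log2 fold change -1.19, -1.05 after scaling and -0.78 without T2 replicate 1).

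Immune genes could be followed through a few names. PTPRC encodes CD45, the phosphatase on the surface of nearly all white blood cells. It had 78.7, 84.6 and 51.9 in T2 and 53.1, 30.3 and 54.9 in T3, so the groups overlapped (NewGene.19556, log2 fold change -0.64 ± 0.33 SE, -0.24 after scaling and -0.37 without T3 replicate 2, unadjusted p = 0.078 in limma). In tissue, fewer cells of a type and less RNA per cell cannot be told apart. CDW52, a lymphocyte surface antigen, ranged from 24.1 to 72.3 in T2 and from 26.7 to 117 in T3. CD200, a ligand that restrains myeloid cells, had 5.56, 10.7 and 8.58 in T2 and 5.42, 4.03 and 4.56 in T3, so that the lowest T2 and the highest T3 library nearly met. A fixed list of Gene Ontology terms for immune processes had 4 tested members, CXCL8 among them, all with a log2 fold change below 0 as had 76.9% of all genes, and 1 was lower by the unadjusted threshold, unscaled and scaled (4.89% and 1.51% of all genes). This was NewGene.6334, a transcript of 479 bases annotated with immunoglobulin production and antigen binding, whose FPKM was 4.58, 2.56 and 22.5 in T2 and 0.626, 0 and 0.191 in T3 (log2 fold change -2.64 ± 0.63 SE, adjusted p = 0.55 in limma, and -2.42 after scaling). All T3 libraries lay below all T2 libraries, but the levels were 0.879, 0 and 0 in T1 and 16.6 and 17.9 in CON.

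CXCL8 (IL8), the neutrophil-attracting chemokine, depended on 1 animal. Its FPKM was 75.5 in T2 replicate 1, from 7160 reads, and 0.574 and 2.91 in the other T2 libraries, against 2.1, 0.230 and 0 in T3 (NewGene.8896, log2 fold change -2.32 ± 1.15 SE, and -0.67 without T2 replicate 1). DUOX, the dual oxidase that makes hydrogen peroxide at the airway surface, had its highest value in the same library, with 14.1, 0 and 3.32 in T2 and 1.62, 0 and 0 in T3 (NewGene.5077, log2 fold change -1.55, and -0.59 without T2 replicate 1). T2 replicate 1 had 794 genes at least 2-fold above both other T2 libraries and 407 at least 2-fold below both, more than T2 replicate 2 (251 and 277) or T2 replicate 3 (177 and 203).

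Components of the ribosome formed the largest named housekeeping group. Of the 15 tested genes named as cytosolic ribosomal proteins, 8 had a log2 fold change below 0 and 7 above, the median was -0.23, or 0.02 after scaling, and 0 passed the unadjusted threshold with a fold of at least 2, though after scaling 1 of them, RPS26, did so as higher. Over all genes the shares were 4.89% lower and 0.391% higher, and 1.51% and 1.14% after scaling. RPS26 was the 1 named gene in which all T3 libraries lay above all T2 libraries, with 1.31, 1.17 and 1.31 in T2 and 2.51, 3.57 and 2.76 in T3 (NewGene.10366, log2 fold change 0.80 ± 0.36 SE, and 1.07 after scaling). It rests on 10 to 13 reads in T2 and 24 to 36 in T3, and its fragment is 239 bases long. The most abundant, RPL35A, fell into separate levels, with 105, 95.8 and 313 in T2 and 386, 402 and 105 in T3 (NewGene.127, log2 fold change 0.79 ± 0.59 SE). T2 replicate 3 and T3 replicates 1 and 2 formed the high set and the other 3 libraries the low set, so altitude did not order this gene. RPL17 (NewGene.14317) had the same arrangement, with 6.14, 6.11 and 14.3 in T2 and 15.6, 21.6 and 5.66 in T3, but the other RPL17 models did not, NewGene.107 having 5.68, 5.12 and 2.29 in T2 and 12.7, 7.09 and 1.37 in T3. Many ribosomal proteins have processed pseudogenes, which can share reads with the genes.

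The respiratory chain list had 8 tested members, of which 7 had a log2 fold change below 0, and 0 passed the unadjusted threshold with a fold of at least 2, beside 76.9% below 0 and 4.89% lower over all genes. Its median was -0.64, or -0.22 after scaling. The list included ND2 and ND5 models described above, so its members were not all separate genes. The 1 member above 0 was NewGene.12171 (log2 fold change 2.62), which stood at 0 in T2 replicate 1. COX6C, a nuclear subunit of cytochrome c oxidase, had 2.31, 5.31 and 4.58 in T2 and 2.47, 1.93 and 0.250 in T3, where T3 replicate 3 was the low library and rested on 4 reads (NewGene.10045, log2 fold change -1.07, -0.73 after scaling and -0.61 without T3 replicate 3). FZD3, a Wnt receptor, was at 4.85, 4.16 and 2.97 in T2 and at 9.999, 10.8 and 4.50 in T3, so that T3 replicate 3 overlapped with T2 (NewGene.10100, log2 fold change 0.86 ± 0.40 SE, and 1.22 after scaling).

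**Figure D4:**
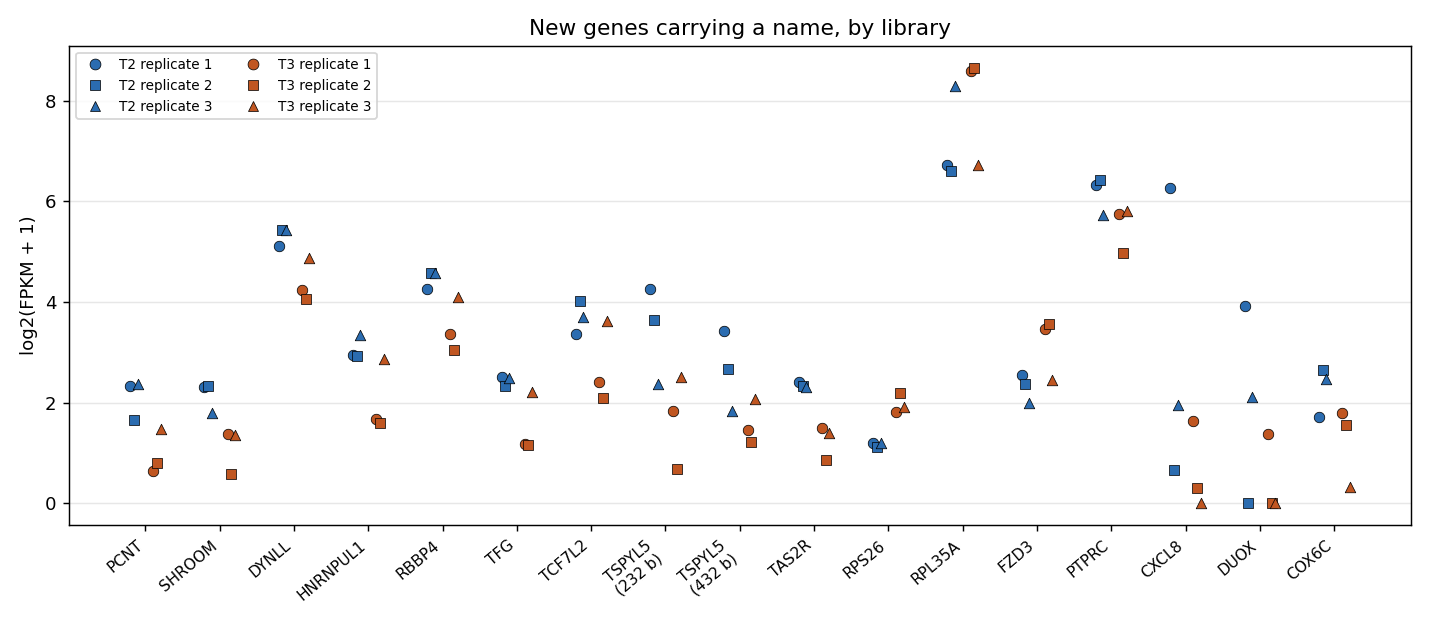
Level in log2(FPKM + 1) of new genes carrying a name, with one point per library, T2 in blue and T3 in orange. T3 replicate 3 (orange triangles) lies nearer to T2 than the other T3 libraries in HNRNPUL1, RBBP4, TFG and TCF7L2, T2 replicate 1 (blue circle) stands apart in CXCL8 at an FPKM of 75.5, and RPL35A is split within both groups.

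A large annotated group was made up of transcripts with transposon-type annotation. The term RNA-directed DNA polymerase activity, which marks the reverse transcriptase of retrotransposons, was carried by 569 tested genes. Their median log2 fold change was -0.39, or -0.15 after scaling, and 18 were lower and 1 higher by the unadjusted threshold. The share of 3.16% lower stood below the 4.89% of all genes, but after scaling 11 were lower and 4 higher, and the share of 1.93% lower stood above the 1.51% of all genes. Among the 1090 tested genes with any Gene Ontology term, 3.30% were lower, or 1.47% after scaling. The 723 genes of this term in the files took 0.734%, 0.707% and 0.608% of reads in T2 and 0.394%, 0.348% and 0.951% in T3, so T3 replicate 3 was the highest and T3 replicate 2 the lowest of the 6 libraries. The 38 tested genes for DNA integration had a median of -0.45 and the 22 for structural constituents of virions -0.54, or -0.22 and -0.27 after scaling, and 0 genes of either group passed the unadjusted threshold with a fold of at least 2.

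The most frequent single name was TAS2R, the family of bitter taste receptors, on 87 tested genes. Their median log2 fold change was -0.23, or 0.03 after scaling, and 1 was lower and 0 were higher by the unadjusted threshold. That is 1.15% lower, against 4.89% of all genes and 3.21% of the new genes. After scaling that call was lost, and a different TAS2R gene was higher (1.15% against 1.14% of all genes). The gene lower without scaling (NewGene.6472, 5640 bases) had 4.30, 4.02 and 3.94 in T2 and 1.83, 0.813 and 1.65 in T3 (log2 fold change -1.09 ± 0.37 SE, and -0.81 after scaling), with compact groups that did not overlap. Of the 130 genes named TAS2R in the files, 9 also carried the reverse transcriptase term, beside 723 of all 17267 genes. For those 9 the name need not stand for a receptor transcript, and whether it does for the others was not tested. SETMAR, a histone methyltransferase gene fused to a transposase, named 8 tested genes, all with log2 fold changes below 0 (76.9% of all genes) and a median of -0.46, or -0.18 after scaling, and 0 were lower or higher by the unadjusted threshold. One of them had 1.53, 1.05 and 1.10 in T2 and 0.411, 0.0865 and 0.268 in T3 (NewGene.8539, log2 fold change -0.83, and -0.68 after scaling).

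The influence of single libraries was followed by leaving each out in turn. Without T3 replicate 3, the unadjusted counts became 1596 lower and 56 higher and the median fold change -0.49. Leaving out T3 replicate 2 gave 243 lower and 31 higher with a median of -0.22, and leaving out T3 replicate 1 gave 575 and 112. Without T2 replicate 1 (LZlg01), 455 genes were lower and 25 higher, and the median stayed at -0.29. When both T3 replicates 1 and 2 were left out, so that T3 replicate 3 stood alone and was assumed to vary like T2, 257 genes were lower and 305 higher and the median was -0.04. The excess of lower genes thus rested on T3 replicates 1 and 2. After median-ratio scaling the numbers lower and higher were closer for every left-out library, and without T3 replicate 3 higher genes outnumbered lower ones by 501 to 405.

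**Figure D5:**
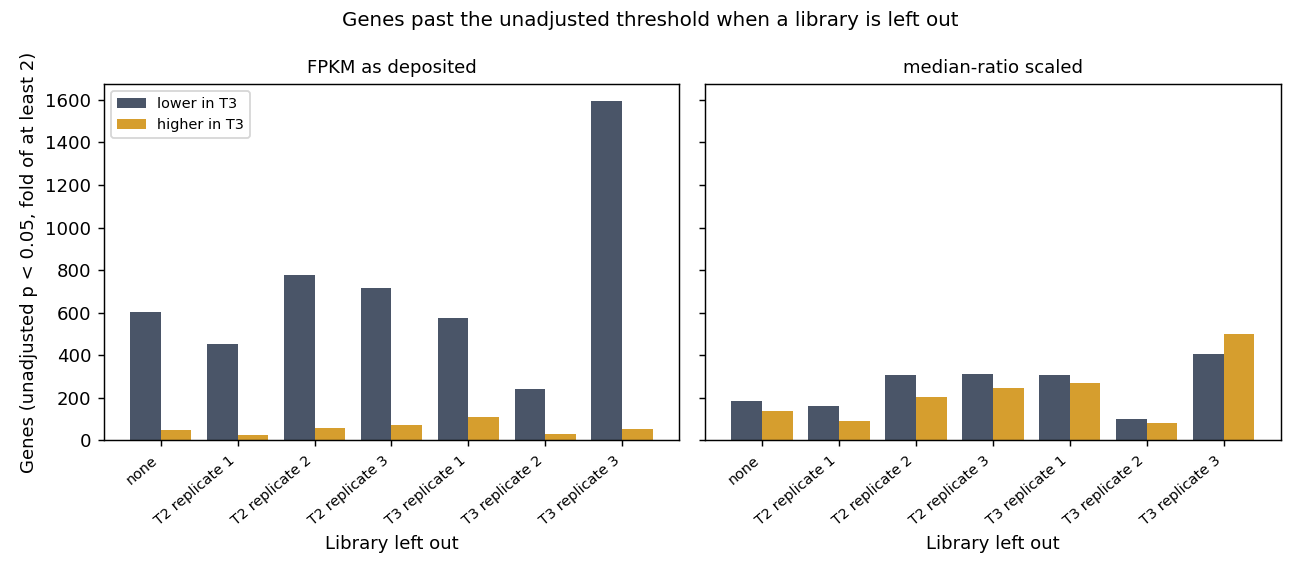
Number of genes at an unadjusted p below 0.05 and a fold of at least 2 (bars from 0) that were lower or higher in T3, with all 6 libraries and with each library left out, as deposited (left) and after median-ratio scaling (right). As deposited, lower genes range from 243 to 1596, and after scaling they range from 101 to 405 with 83 to 501 higher genes.

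The adjusted call also moved with the libraries. The call on 102283353 was kept without any single library but lost without both T3 replicates 1 and 2, where NewGene.14488 and 102268061 were called in its place. Without T3 replicate 1, NewGene.14488 was called as well, with 0.0538, 2.70 and 2.28 in T2 and 0, 23472 and 9252 in T3, where T3 replicate 1 was the library at 0 (log2 fold change 8.01 in all 6 libraries and 12.6 without T3 replicate 1, adjusted p = 2.16e-06 in limma). Its levels in T1 were 8765, 5.28 and 4641, again high in some animals only. The gene 106700761 was called lower without T3 replicate 3, and it had 432, 248 and 316 in T2, 0 in T3 replicates 1 and 2, and 548 in T3 replicate 3. Without T3 replicate 1, 102266548 was called higher as well, with 0.207, 0.184 and 0.507 in T2 and 0.0659, 38.0 and 19.8 in T3. Without T3 replicate 2, 102273326 was called lower, with 32.3, 67.2 and 21.2 in T2 and 0.319, 21.3 and 0.912 in T3. In each of these 4 genes, called without a single library and without scaling, the one left out was the T3 library with the level nearest to T2. With median-ratio scaling further genes were called, and the library left out was not always from T3. A gene with 0, 11.5 and 0 in T2 and 7.84, 6.83 and 9.65 in T3 was then called higher without T2 replicate 2.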

How the data were processed

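Lung RNA of 6 yaks was analysed out of 11 libraries; the extract protocol in the labels names retinas, whereas tissue and source are given as lung. Reads were mapped and transcripts assembled by the authors, with HISAT2 and StringTie in the study's methods but Bowtie2 2.2.8 and TopHat2 2.1.1 in the submitters' processing notes; the deposited values are FPKM per gene, with gene lengths. FPKM times length gave whole reads for 100% of values (tolerance 0.05 reads). Genes at 1 FPKM or more in at least 2 of the 6 libraries were tested on log2(FPKM + 1) with limma 3.58.1 (R 4.3.3, eBayes with trend) and Benjamini-Hochberg adjustment; fold changes are on that scale and understate low genes. The last gene inside this filter was 102286260, with a second-highest value of 1.0002, and the first outside was NewGene.12269, at 0.9998. The deposited unit being FPKM, the test was run on the log scale, and recovered reads entered only as an alternative. Depth was 28138973 to 54515645 reads per library, and a floor of 3 reads covers counting error only. Each animal gave 1 library, so p-values measure the spread between these animals.

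Named genes were up to 12 with a symbol per direction at unadjusted p below 0.05, a fold of at least 2 and libraries that did not overlap (4 lower and 0 higher existed), 2 without a symbol per direction, the 10 with most reads, a list taken from the study (0 found), and the genes at the filter's edge; all other named genes were chosen after their values were seen. The comparison and gene lists were chosen with earlier results of these data known. Alternatives were another scaling, pseudocount, filter, set of libraries, weights, voom on recovered reads and a replicate block. The reference table (Bosgru_T2T1.0, 40772 genes) matched no identifier. The fit was tested on simulated data.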

Additional observations from a re-analysis of the deposited data

Results flagged for a closer look

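The most abundant genes were also read in the libraries that the comparison did not use. The FPKM of 102276161 was 1212 in T1 replicate 1 against 188 and 226.5 in the CON libraries and 55.8 and 87.0 in the other T1 libraries, so it stood above both controls. The gene 102270677 had 11569 in the same T1 library against 1360 and 1646 in CON and 551 and 550 in the other T1 libraries. Both were high in T3 replicates 1 and 2. The third gene of that kind, NewGene.4675, stood at 157 in T1 replicate 1, between the CON libraries at 127 and 172, and at 31.8 and 35.2 in the other T1 libraries.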

How the results depend on the processing

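The single adjusted call became 0 in the fits of 9 yak or 11 libraries, with voom on recovered reads and with voom and median-ratio scaling, 2 with library weights and scaling, and 2 other genes without both T3 replicates 1 and 2 (2 also with scaling, an alternative added after the data were seen); leaving out 1 library, with or without scaling, gave 1 to 5. Higher and lower unadjusted genes numbered 140 and 185 with median-ratio scaling, 136 and 146 with quantile normalization, 244 and 257 with library weights and scaling, 156 and 264 with voom and scaling, and 15 and 294 at a mean FPKM of at least 5. They numbered 305 and 257 without both T3 replicates 1 and 2, and 348 and 233 with scaling as well; weights alone gave 1206 lower, a fold of 1.5 gave 1050 lower, and rescaling without the 10 most abundant genes gave 86 higher. Leaving out 1 library gave 25 to 501 higher and 101 to 1596 lower. Genes whose libraries did not overlap, higher and lower, numbered 75 and 130 with scaling, 83 and 104 with quantiles, 11 and 228 at a mean FPKM of at least 5, 40 and 830 with a pseudocount of 0.1, and 42 and 827 with voom. The higher ones numbered 175 with voom and scaling, 46 without the 10 most abundant genes, and 590 (644 scaled) without both T3 replicates; leaving out 1 library gave 25 to 540 higher and 114 to 1783 lower. The median fold change was -0.01 with scaling, 0.015 with quantiles, -0.033 with weights and scaling, 0.003 with voom and scaling, -0.039 without both T3 replicates and 0.001 with scaling as well, and -0.487 to 0.028 with 1 library left out. Of 30 genes followed through 27 alternatives, 26 kept their sign wherever they were tested. The other 4 reversed without both T3 replicates 1 and 2 (in brackets with scaling): 102276161 to -0.63 (-0.59), 102270677 to -0.56 (-0.51), NewGene.4675 to -0.39 (-0.34) and RPL35A to -0.48 (-0.43). Beyond the change in the samples or genes used, the cause was not tested.

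With the replicate number of the titles as a replicate block, 1 gene passed the adjusted test and 63 genes were higher and 658 lower. The numbers did not pair the libraries, since the deviations of same-numbered libraries correlated at -0.045, -0.054 and -0.113, and no library correlated best with its own number.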

Other observations

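A search made after the values were seen looked for genes that were abundant in some of these lungs and nearly absent in others. It found 8 genes with 50 FPKM or more in at least 3 of the 6 libraries and below 1 in at least 1, of which 3 were the ND2 and ND5 models described above. The gene 102268061 had 259, 380 and 400 in T2, 384 and 328 in T3 replicates 1 and 2 and 0.904 in T3 replicate 3. Outside the comparison it stood at 301 in CON replicate 2, at 0.111 in CON replicate 1 and between 1.59 and 4.36 in T1. NewGene.10667 had 80.4 and 206 in T2 replicates 1 and 2 and 0.0621 in replicate 3, and 206 and 94.5 in T3 replicates 1 and 3 and 0.183 in replicate 2. NewGene.9246 (249 bases) had 63.7, 0 and 0 in T2 and 0, 93.5 and 56.7 in T3. NewGene.14159 had 54.7, 0 and 34.9 in T2 and 55.7, 85.9 and 66.6 in T3. In these 4 genes the near-absent libraries did not follow altitude, and in 106700761, described above, the zeros fell in T3 replicates 1 and 2 alone of the 11 libraries.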
